A study of Mus musculus with 9 samples.

Results

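The genes of the cytosolic ribosome were examined in macrophages sorted from mouse skin wounds early and late in repair. Members were the rows of the deposited count table whose symbols are Rpl or Rps, a number and at most an a or x. This pattern took 72 of 18303 genes, 43 of the large (60S) subunit and 29 of the small (40S) subunit. It leaves out ribosomal protein S6 kinases, pseudogenes and paralogs, and also 6 proteins of the cytosolic ribosome with other symbols, such as Rplp0 and Rpsa, which are described separately. The groups were wounds 4 days after injury (4 libraries) and 14 days after injury (5 libraries), all from wild-type mice on the C57BL/6J background with no other treatment. Age and sex of the mice are not given in the sources used here. All cells were gated as CD45+CD11b+F4/80+ after enzymatic and mechanical dispersal of the wound, and each library is a bulk RNA library of such a sort. The labels do not say whether libraries came from separate animals or pools, so each p-value reflects the spread over these libraries alone, and that spread may be technical.

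A ribosome is built from 4 ribosomal RNAs and about as many proteins as there are members here, each normally needed once per particle. The proteins' mRNAs begin with a C and a run of pyrimidines at the cap, the terminal oligopyrimidine (TOP) tract. Through the RNA-binding protein Larp1, the kinase complex mTORC1 controls how much these mRNAs are translated and how long they last, so mRNA level and protein output need not move together. Mammalian genomes also hold many processed copies of ribosomal protein mRNAs, most of them pseudogenes, which makes short reads of these genes hard to place.

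The libraries held between 17982633 and 57809918 counts. In day 14 replicate 5 the counts stop within the gene Aplp2 on chromosome 9 (31149557 to 31211848, GRCm38), and 482 of 482 well-counted genes of that chromosome beyond it were at 0 there. Of the members, 64 lie before this point. The other 8 (Rpl4, Rpl14, Rpl29 and Rps25 on chromosome 9, Rpl10, Rpl36a, Rpl39 and Rps4x on X) were taken from the other 8 libraries, so n is 4 and 4 for them. The 10 macrophage and sort markers summed to between 19400 and 23000 CPM (the library-scaled count, with TMM factors) in all 9 libraries, while singly 2 of the 10 were called higher at day 14 and 5 lower. Markers of other cells were present too. The 13 fibroblast markers up to the break summed to 11600 to 23400 CPM at day 4 and 6390 to 10400 CPM at day 14, and 10 of 14 in all were called lower. Called higher at day 14, the direction of the called members, were 6 of 10 tested markers of dendritic cells, 5 of 7 of keratinocytes, 5 of 5 of erythroid cells, 4 of 4 of eosinophils, 2 of 2 each of T and NK cells and of B and plasma cells, 2 of 5 of endothelium and 2 of 5 of mast cells (1 lower). Most of these were at low levels. Dendritic cell markers summed to 172 to 256 CPM at day 4 and 327 to 406 CPM at day 14, and T and NK cell markers to 83.7 to 162 CPM and 159 to 386 CPM. The part of these cells in the members' values was not tested.

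Ribosomal protein mRNAs changed little between day 4 and day 14, and where they passed the test they were higher at day 14. All 72 members were abundant enough to be tested. At day 14, 9 were higher, 0 lower and 63 did not pass (edgeR's quasi-likelihood test, adjusted p under 0.05). Over all 13353 genes tested, 31.0% were called, 16.0% higher and 14.9% lower, so the members' 12.5% lay below the background. At an unadjusted p under 0.05, 22 members were higher and 2 lower. The share of all genes at that threshold was not counted, so these counts cannot be set against a background. DESeq2 called 13 higher and 2 lower (Rpl18 and Rps2), beside 18.0% of all genes higher and 17.5% lower. With limma-voom, 7 were higher and 0 lower, beside 16.8% of all genes higher.

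The changes were small. The median log2 fold change of the members was 0.14, with the middle 50% between 0.02 and 0.30, against a median of 0.01 and a middle 50% between -0.25 and 0.28 for all genes tested. Of the 72, 54 had a positive fold change and 18 a negative one, while 51.2% of all genes tested were positive. No member changed by 2-fold or more, a size reached by 10.3% of all genes. The 95% interval lay within 2-fold either way for 69 members, all but Rpl37, Rpl38 and Rpl39, and within 1.5-fold for 48.

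**Figure D1:**
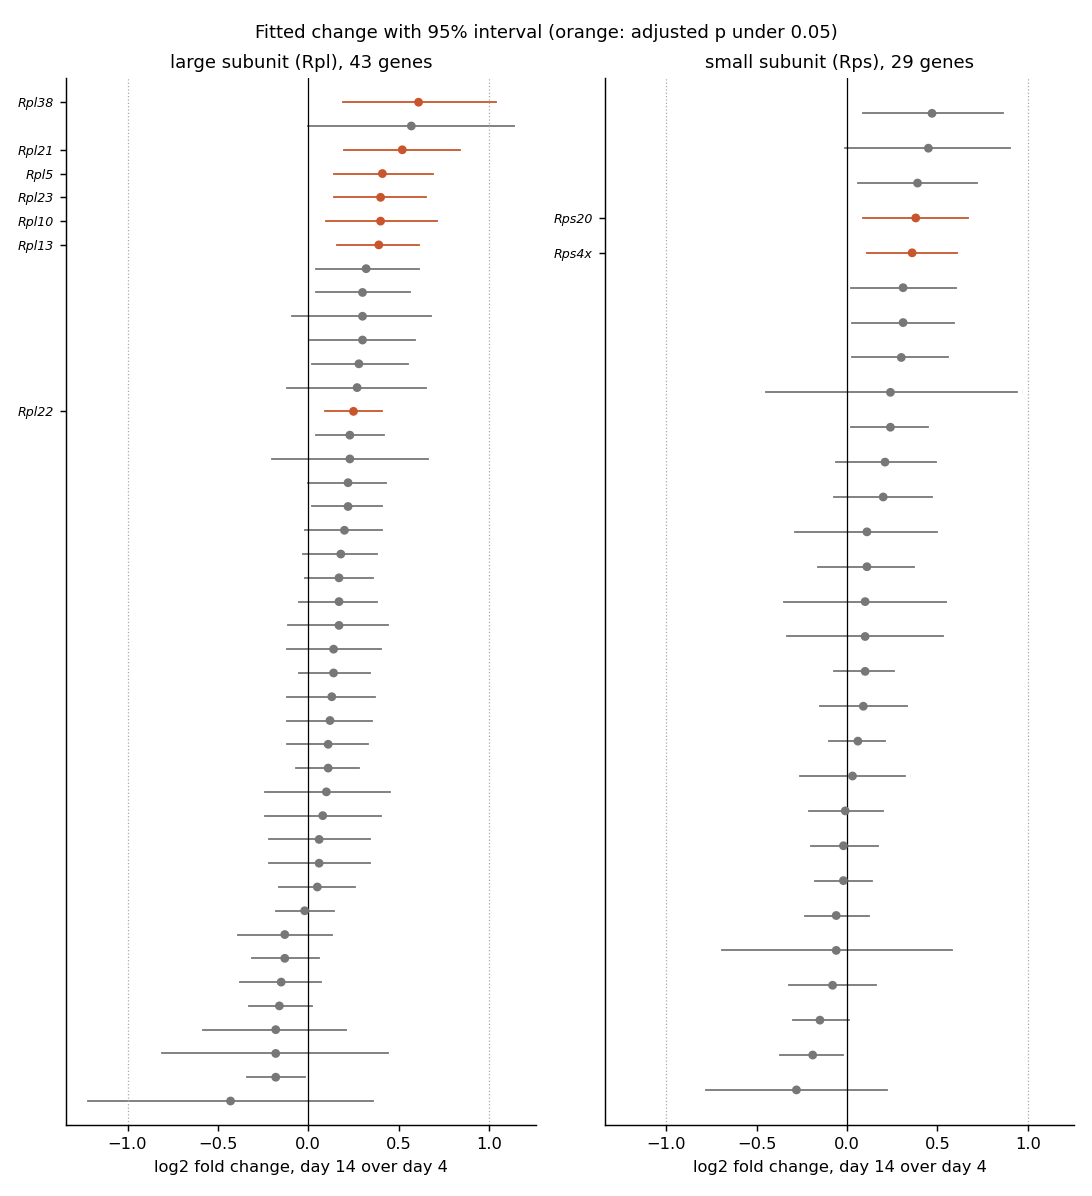
Fitted log2 fold change of each of the 72 members, day 14 over day 4, with its 95% interval, ordered by size and with the called members named; genes of the large subunit are on the left and of the small subunit on the right, orange marks an adjusted p under 0.05 and dotted lines mark 2-fold. The 9 called members sit between 0.25 and 0.61, and the points of all members lie between -0.43 and 0.61.

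By subunit, 7 of 43 large-subunit genes were called, with a median log2 fold change of 0.17, and 2 of 29 small-subunit genes, with a median of 0.10. The difference between the subunits was not tested.

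Rpl13, a structural protein of the large subunit (chr8:123102350-123105244), had the lowest adjusted p. It stood at 68.2, 68.8, 66.6 and 68.7 CPM in the 4 day 4 libraries and at 99.4, 97.3, 70.4, 97.3 and 80.7 CPM in day 14 replicates 1 to 5. Every day 14 library was above every day 4 library, by a small margin in replicate 3. Its log2 fold change was 0.39 ± 0.10 (SE, adjusted p = 0.0141). It also passed with each library left out in turn, with adjusted p from 0.00119 to 0.0397.

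Rpl22, an RNA-binding protein that bulk translation can spare and that T cell development needs, was the other called member without overlap between the days. Its values were 79.3, 84.0, 83.1 and 79.8 CPM at day 4 and 101, 104, 89.4, 100 and 91.0 CPM at day 14. The log2 fold change was 0.25 ± 0.07 (adjusted p = 0.0211). Over all genes tested, 13.0% had every day 14 library above every day 4 library, against these 2 of 72 members.

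The other called genes of the large subunit shared 1 pattern, with 3 high libraries at day 14 and replicate 3 at the level of day 4. Rpl38, known for its part in the translation of Hox mRNAs in the embryo, had the largest fold change and a low level. It was at 4.38, 3.94, 4.14 and 4.56 CPM at day 4 and at 7.99, 7.41, 4.42, 7.82 and 4.79 CPM at day 14 (log2 fold change 0.61 ± 0.20, adjusted p = 0.0324). Rpl21 was at 29.5, 32.8, 29.7 and 24.9 CPM at day 4 and at 49.3, 46.5, 28.8, 46.7 and 37.6 CPM at day 14 (0.52 ± 0.15, adjusted p = 0.0198), a call that was lost when its near-identical copy was added, as given with the copies. Rpl5 carries the smallest ribosomal RNA into the subunit together with Rpl11, and the free complex inhibits the ubiquitin ligase Mdm2. It was at 102, 122, 113 and 104 CPM at day 4 and at 169, 162, 108, 162 and 131 CPM at day 14 (0.41 ± 0.13, adjusted p = 0.0275). Its partner Rpl11 did not pass (64.3 ± 2.13 and 72.2 ± 13.8 CPM, SD, n = 4 and 5, adjusted p = 0.329).

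Rpl10, which joins the large subunit late and lets the export factor Nmd3 leave, lies on X and has no value in replicate 5. It was at 175, 171, 168 and 151 CPM at day 4 and at 252, 252, 158 and 222 CPM in day 14 replicates 1 to 4 (0.40 ± 0.14, adjusted p = 0.0458). Rpl23 sits at the face that meets the small subunit. It was at 58.6, 64.6, 48.1 and 53.3 CPM at day 4 and at 81.9, 82.2, 58.9, 77.4 and 68.2 CPM at day 14 (0.40 ± 0.12, adjusted p = 0.0227). Replicate 3 lay within the day 4 range for both genes.

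In the small subunit, Rps20 and the X-linked Rps4x passed. Rps20 was at 79.1, 93.8, 83.8 and 83.2 CPM at day 4 and at 129, 127, 82.5, 120 and 93.6 CPM at day 14 (0.38 ± 0.13, adjusted p = 0.0446). Rps4x was at 222, 239, 221 and 212 CPM at day 4 and at 309, 329, 229 and 287 CPM in day 14 replicates 1 to 4 (0.36 ± 0.11, adjusted p = 0.0316). In all 9 called members, day 14 replicates 1, 2 and 4 stood above every day 4 library and replicate 3 was the lowest day 14 library. In 7 of the 9, replicate 3 lay within the day 4 range.

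**Figure D2:**
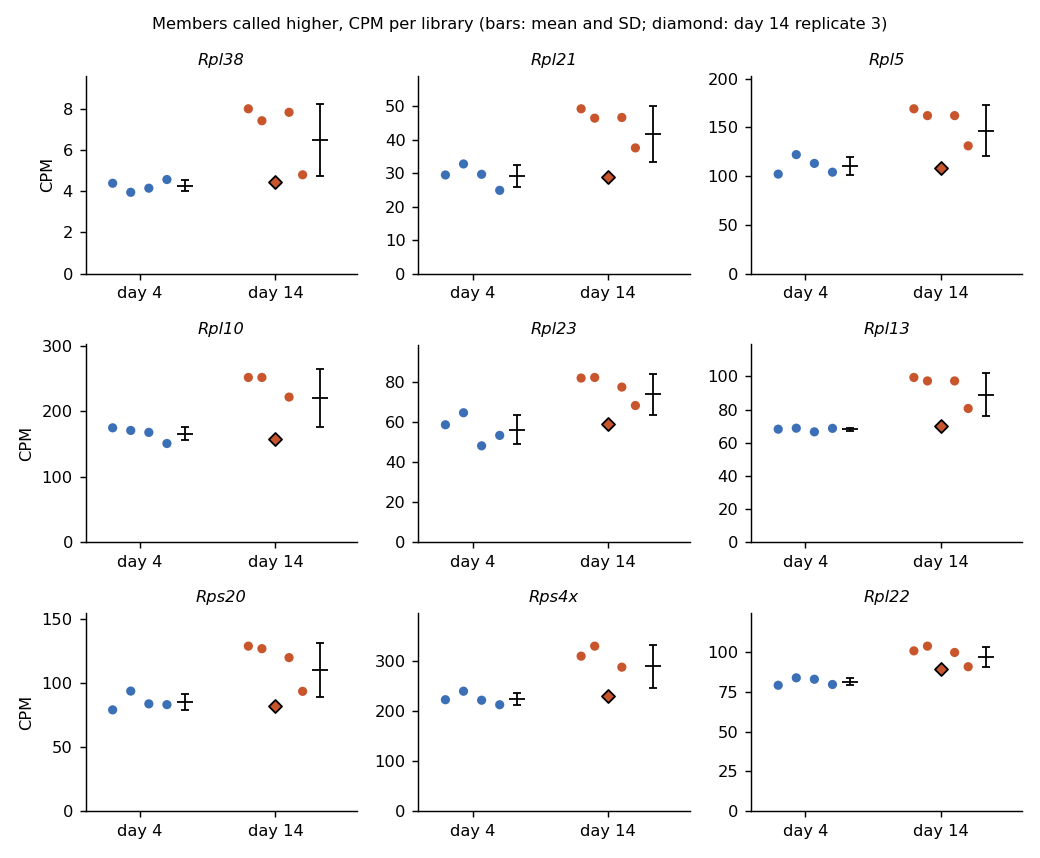
CPM of the 9 called members in each library, day 4 in blue and day 14 in orange, with the mean and SD beside each group; the diamond is day 14 replicate 3, and Rpl10 and Rps4x have no value in day 14 replicate 5. The diamond is the lowest day 14 point in each of the 9 panels.

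The most abundant members did not pass the test. Rps3, at the entry of the mRNA channel, had the highest mean level. It stood at 500, 521, 482 and 499 CPM at day 4 and 495, 525, 485, 475 and 486 CPM at day 14 (log2 fold change -0.02 ± 0.07, 95% interval -0.18 to 0.14, adjusted p = 0.86). Rpl4, which lines the exit tunnel, had 422, 449, 416 and 420 CPM in the day 4 libraries, then 508, 516, 446 and 516 CPM (0.22 ± 0.09, adjusted p = 0.0833, n = 4 and 4). Rpl8, near the site of peptide bond formation, had 401, 389, 405 and 462 CPM, then 340, 335, 441, 345 and 404 CPM (-0.15 ± 0.10, adjusted p = 0.281). Replicates 1, 2 and 4 of day 14 were its lowest libraries, and replicate 3 was above 3 of the 4 day 4 libraries. Rpl41, the smallest protein of the ribosome, ranged from 264 to 314 CPM at day 4 and from 245 to 282 CPM at day 14 (-0.13, adjusted p = 0.271).

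Members closest to no change were Rps21 (22.2 ± 0.293 and 22.1 ± 2.52 CPM), Rpl13a (52.9 ± 2.01 and 52.2 ± 3.39 CPM) and Rps3, each within 0.02 of 0 in log2 fold change. Rpl13a is also known for a role outside the ribosome, in silencing inflammatory mRNAs. By listed counts, the least abundant were Rpl37, Rpl34 and Rpl36 of the large subunit and Rps29, Rps27 and Rps12 of the small one, with none called. Rpl36 stood at 4.73 ± 0.799 and 4.18 ± 0.762 CPM, Rps29 between 1.34 and 2.68 CPM and between 1.03 and 2.74 CPM and Rps12 at 9.77 ± 2.71 and 10.5 ± 2.50 CPM (adjusted p = 0.471, 0.904 and 0.743).

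Rps6, the substrate of the S6 kinases downstream of mTORC1, missed the threshold. It was at 314, 355, 304 and 297 CPM at day 4 and at 446, 438, 294, 406 and 364 CPM at day 14 (0.30 ± 0.12, adjusted p = 0.0834). Its lowest value of all 9 libraries was in day 14 replicate 3. Without that library, singled out for its low value, Rps6 passed (0.38 ± 0.09, adjusted p = 0.00958). It did not pass with any other library left out (adjusted p from 0.0582 to 0.2).

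Members with lower values at day 14 were few and none passed. Rpl18, Rps2 and Rpl29 had every day 14 library below every day 4 library, a pattern of 12.7% of all genes tested. Rpl18 was at 49.2, 45.3, 47.4 and 52.7 CPM at day 4 and 42.0, 42.5, 42.8, 42.6 and 44.9 CPM at day 14 (-0.18 ± 0.07, adjusted p = 0.0746). Rps2, which lines the mRNA entry, was at 219, 217, 209 and 227 CPM and then 201, 208, 187, 195 and 194 CPM (-0.15 ± 0.07, adjusted p = 0.14). Rpl29, beyond the break, was at 170, 175, 167 and 169 CPM and then 158, 150, 163 and 141 CPM (-0.16 ± 0.08, adjusted p = 0.156).

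Levels differed far more between members than between days. The mean level ranged from 2.14 CPM (Rps29) to 496 CPM (Rps3), a 232-fold range around a median of 66.0 CPM. Per kilobase of coding sequence, the day 4 level had a median of 121 CPM and an upper quartile of 231 CPM. The highest value per kilobase was 3810 CPM for Rpl41, which has the shortest coding sequence, so reads from outside it weigh most there. The lowest was 9.74 CPM for Rpl37, but 97.8% to 99.6% of the counts of Rpl37 and its near-identical copy were listed under the copy. All levels here are listed counts, without counts listed under copies. Across members, the mean CPM rose with coding length (Spearman's rho 0.58, n = 72 genes in the same libraries, a description). Of the 9 members with under 100 residues, 7 had a day 4 mean under 30 CPM (all but Rpl39 and Rpl41), and the median per kilobase was 49.2 CPM against 129 CPM in the 63 longer ones. Together, the 64 members up to the break made up 0.524% to 0.669% of a library's counts on genes up to the break.

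Most members moved together between the day 14 libraries. Summed over the 64 members up to the break, the level was 5570, 5871, 5721 and 5776 CPM at day 4 (5734 ± 126, SD, n = 4). At day 14 it was 6687, 6604, 5574, 6341 and 5747 CPM (6191 ± 504, n = 5). Replicates 1, 2 and 4 of day 14 were above every day 4 library, replicate 3 was near the lowest of them and replicate 5 was within their range. Of the 64 members, 57, 54, 10, 47 and 9 stood above their own day 14 mean in replicates 1 to 5. The same share over all genes was not counted, so these counts are not shown to be particular to the members.

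The day 14 libraries therefore differed more among themselves than the day 4 libraries for these genes. The median over members of the SD of log2(CPM + 1) was 0.104 at day 4 and 0.203 at day 14, and it was larger at day 14 for 53 of 64. Over the 8387 genes up to the break with a mean log2 level above 3, the medians were 0.153 and 0.147, and 48.6% were larger at day 14. This contrast is a description with no test.

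Neutrophil markers were high in the libraries where the members were low. Summed over 6 of them, S100a9 and S100a8 included, the level was 1790, 655, 738 and 758 CPM at day 4 and 383, 258, 1820, 380 and 842 CPM at day 14. The median deviation of the members from their own mean, in log2, was -0.14, -0.01, -0.06 and -0.08 at day 4 and 0.26, 0.20, -0.16, 0.14 and -0.10 at day 14. The library with the most neutrophil marker RNA, day 14 replicate 3, had the lowest members, followed on both measures by day 4 replicate 1 and then day 14 replicate 5. The 3 libraries with the least, day 14 replicates 1, 2 and 4, had the highest members. Within day 14, markers of other cells split the same libraries. Fibroblast markers summed to 6390, 6480 and 7270 CPM in replicates 1, 2 and 4 and to 9300 and 10400 CPM in replicates 3 and 5, and keratinocyte markers to at most 19.2 CPM against at least 21.3 CPM. B and plasma cell markers, at 20.8, 20.3 and 17.4 CPM against 14.6 and 13.2 CPM, and macrophage and sort markers, at 21900, 21000 and 22200 CPM against 20500 and 20400 CPM, were higher where the members were. As a list, 0 of 7 tested neutrophil markers were called between the days. With the mean log2 level of the neutrophil markers in the model, chosen after the data were seen, 1 member was called higher (Rpl13, log2 fold change 0.25, adjusted p = 0.0492), 0 were lower, and 11.8% of all genes were called higher. The members' median was then 0.03.

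**Figure D3:**
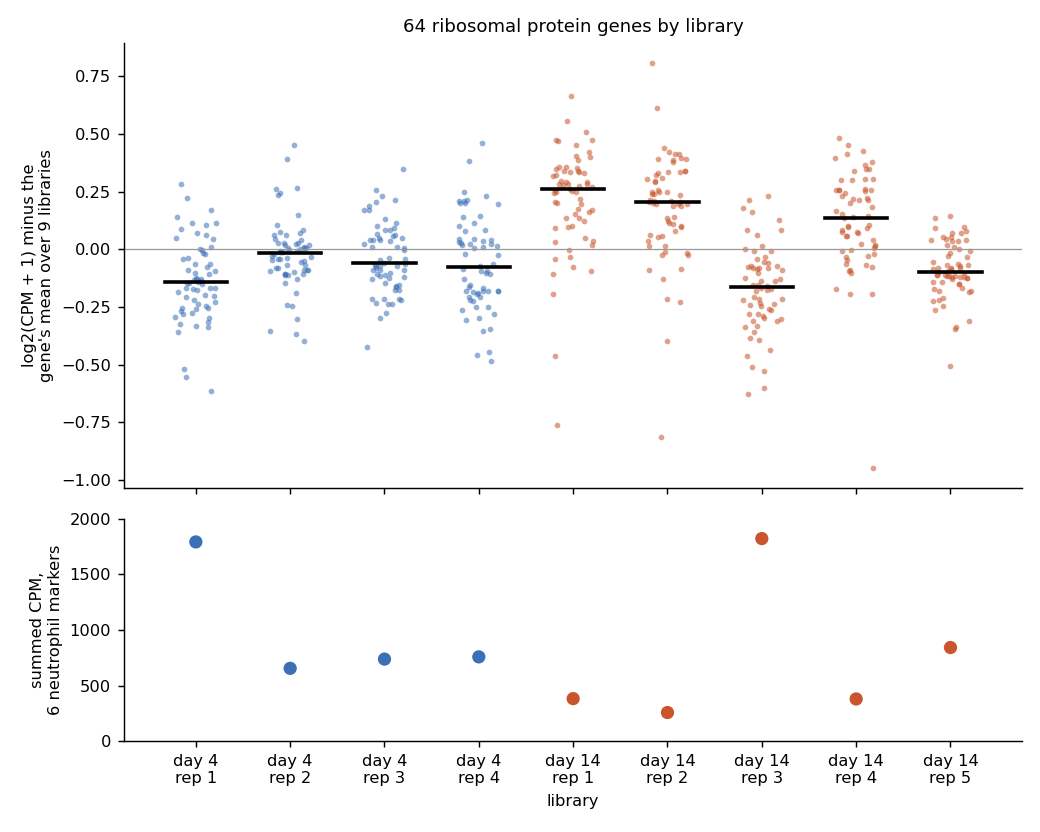
Upper panel: log2(CPM + 1) of each of the 64 members up to the break minus that gene's mean over the 9 libraries, with the median of each library as a bar. Lower panel: summed CPM of 6 neutrophil markers in the same libraries; day 14 replicate 3 has the lowest bar (-0.16) and the highest marker sum (1820 CPM).

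Leaving out day 14 replicate 3 raised the number of members called higher to 28, all 9 of the main test among them, while the share of all genes called higher went to 18.3%. The 19 that were added included Rps6, Rps13, Rps23, Rps24, Rps25, Rpl4, Rpl7, Rpl15 and Rpl39. In the same fit, 1 member was lower (Rpl29). Replicate 3 was singled out for its low values in the members, so the higher count without it is no independent support. Leaving out day 14 replicate 5 raised the number called higher from 9 to 13, beside 14.8% of all genes. Those added were Rpl15, Rpl35a, Rps13 and Rps27a. Leaving out any of the other libraries lowered the count. It went to 8 without day 4 replicate 2, beside 16.7% of all genes. Without day 4 replicate 4, day 14 replicate 1 or day 14 replicate 2 it was 1. It was 3 without day 4 replicate 1 or 3 and 4 without day 14 replicate 4. For these fits the share of all genes was not counted, so a change in the members cannot be told from one over all genes. With the mean level of the fibroblast markers as a covariate, no member was called in either direction (4 at an unadjusted p under 0.05), and 4.52% of all genes were called higher. The fibroblast sums did not overlap between the days, so this fit can hardly separate day from score. The members' median log2 fold change was 0.05 in this fit, against 0.14 in the main test. For Rpl13, the estimate went from 0.39 to 0.20 and its SE from 0.10 to 0.17. Fitted alone, the 6 libraries of lowest depth (2 of day 4, 4 of day 14, between 17982633 and 27381291 counts) gave 0 calls in either direction (1 at an unadjusted p under 0.05), with 7.61% of all genes called higher and 7.72% lower. In bulk RNA, fewer cells with a high level and less RNA per cell cannot be told apart.

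Fold changes followed base composition. Coding sequences of the members held 44.9% to 61.6% GC, and across the 72 genes the log2 fold change fell as GC rose (Spearman's rho -0.63, a description over genes that share the same libraries). Over 12799 genes tested with a coding sequence in the annotation, rho was -0.27. Among the 36 members of lower GC (44.9% to 52.6%), 8 were called and the median log2 fold change was 0.26. Among the 36 of higher GC (52.7% to 61.6%), only Rpl13 (58.5% GC) was called, with a median of 0.05.

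The same gradient differed between libraries of 1 day. Over 8257 genes, the rank correlation between a gene's deviation from its mean and its GC was 0.17, -0.18, 0.36 and 0.53 in day 4 replicates 1 to 4 and -0.45, -0.42, 0.37, -0.47 and 0.12 in day 14 replicates 1 to 5. Day 14 replicates 1, 2 and 4, where the members were high, had the steepest negative slopes. When each library's trend on GC was removed as an offset, an alternative added after seeing the data, 14 members were called higher and 0 lower, beside 17.0% of all genes called higher. All 9 remained, and Rpl4, Rpl10a and Rpl15 were among those added.

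**Figure D4:**
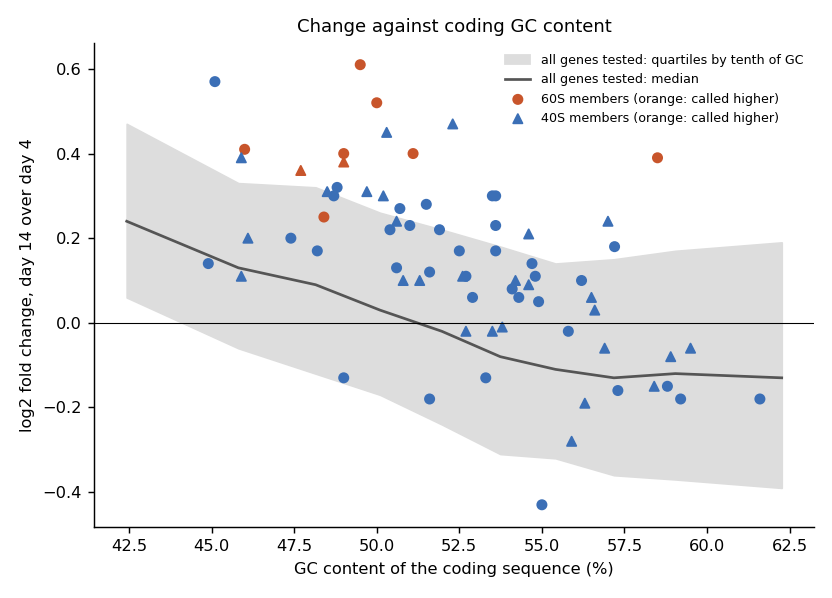
Log2 fold change of each member against the GC content of its coding sequence (circles, large subunit; triangles, small subunit; orange, called higher), over the median and quartiles of all tested genes in 10 bins of GC. Called members cluster below 52% GC except Rpl13 at 58.5%.

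Many members have annotated near-identical copies. For 63 of 72, GENCODE M21 lists at least 1 other gene that shares 50% or more of the 30-base words of the coding sequence. For 9 of them such a copy is listed in the count table. The table's values are not whole numbers for 21 members in at least 1 library and for 8 of these 9 in all 9 libraries, with Rpl21 as the exception. How reads that match several genes were counted is not given in the sources used here.

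Rpl37 shows how far this can go. The processed pseudogene Gm13826 on chromosome 5 differs from its 291-base coding sequence at 1 base, which is in capitals in the 40 bases printed from each (coding bases 229 to 268, GENCODE M21).

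Rpl37: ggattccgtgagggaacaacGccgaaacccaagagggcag

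Gm13826: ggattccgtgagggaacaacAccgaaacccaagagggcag

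Of the counts of the pair, 97.8% to 99.6% were listed under Gm13826. Alone, Rpl37 stood at 2.82, 2.52, 2.49 and 3.51 CPM at day 4 and 2.69, 3.38, 1.12, 0.696 and 2.50 CPM at day 14, the lowest fold change of all members (-0.43 ± 0.36, adjusted p = 0.385). With its copy it stood at 149, 157, 152 and 156 CPM and then 167, 165, 157, 160 and 146 CPM (log2 fold change 0.05 ± 0.07, adjusted p = 0.623). Its coefficient of variation at day 14 went from 54.3% to 5.27%. On the sum, the low level and the spread of Rpl37 were no longer seen. Gm13826 is annotated as transcribed and spans far more sequence than this coding sequence. The sum may therefore also hold reads of Gm13826 that are not shared, and it is not shown to be the level of Rpl37.

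Rpl34 behaved in the same way. The pseudogene Rpl34-ps1 on chromosome 6 differs from its coding sequence at 2 of 351 bases, 1 of them in the stretch printed (coding bases 112 to 151).

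Rpl34: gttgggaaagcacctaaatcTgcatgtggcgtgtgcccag

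Rpl34-ps1: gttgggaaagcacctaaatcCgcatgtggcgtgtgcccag

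Rpl34 alone was at 3.99, 4.53, 3.74 and 3.73 CPM at day 4 and at 1.72, 6.04, 3.44, 3.80 and 2.72 CPM at day 14. With the copy it was at 12.2, 15.7, 15.2 and 12.8 CPM and then 16.3, 16.6, 16.3, 15.3 and 15.5 CPM, and the coefficient of variation at day 14 went from 45.3% to 3.62%. The fold change turned from -0.18 ± 0.29 to 0.20 ± 0.10, and neither passed (adjusted p = 0.664 and 0.158).

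In the other 7 pairs the share of counts on the copy varied widely. It was 88.9% to 89.3% for Rpl26 and Gm15772, at most 80.7% for Rpl31 and Rpl31-ps12, 42.7% to 63.0% for Rps15a and its 2 copies, 23.5% to 51.8% for Rps26 and Gm6654 and 21.1% to 48.5% for Rps27 and Rps27rt, whose coding sequences are identical over 252 bases. Rps26, which sits where the mRNA leaves the small subunit, was at 34.5, 57.8, 51.6 and 57.5 CPM at day 4 and at 31.5, 24.5, 51.0, 52.5 and 48.2 CPM at day 14. This is the lowest fold change of its subunit (-0.28 ± 0.23), and it was -0.09 ± 0.14 with the copy, neither of which passed.

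Adding the copies, an alternative chosen after the data were seen, left the number of members called higher at 9 but changed 2 of them. Rpl21 lost its call (79.2, 77.8, 76.5 and 70.2 CPM at day 4 and 89.1, 90.5, 72.5, 86.9 and 78.6 CPM at day 14, log2 fold change 0.14 ± 0.08, adjusted p = 0.228). Its copy BC004004, on chromosome 17, is annotated as a protein-coding gene that spans far more sequence, so the sum also holds reads of BC004004 that are not shared. Rpl30 gained a call with its pseudogene Gm12191, which differs at 1 of 345 bases. The sum was 24.8, 29.6, 29.4 and 25.1 CPM at day 4 and 54.1, 46.8, 25.3, 38.8 and 31.0 CPM at day 14 (0.53 ± 0.19, adjusted p = 0.0496), with replicate 3 again at the day 4 level. Rpl30 alone was at 15.7, 15.1, 12.2 and 14.2 CPM and then 14.0, 17.9, 14.9, 18.2 and 13.7 CPM (0.14 ± 0.12, adjusted p = 0.399). Which locus the reads of a pair came from was not tested.

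**Figure D5:**
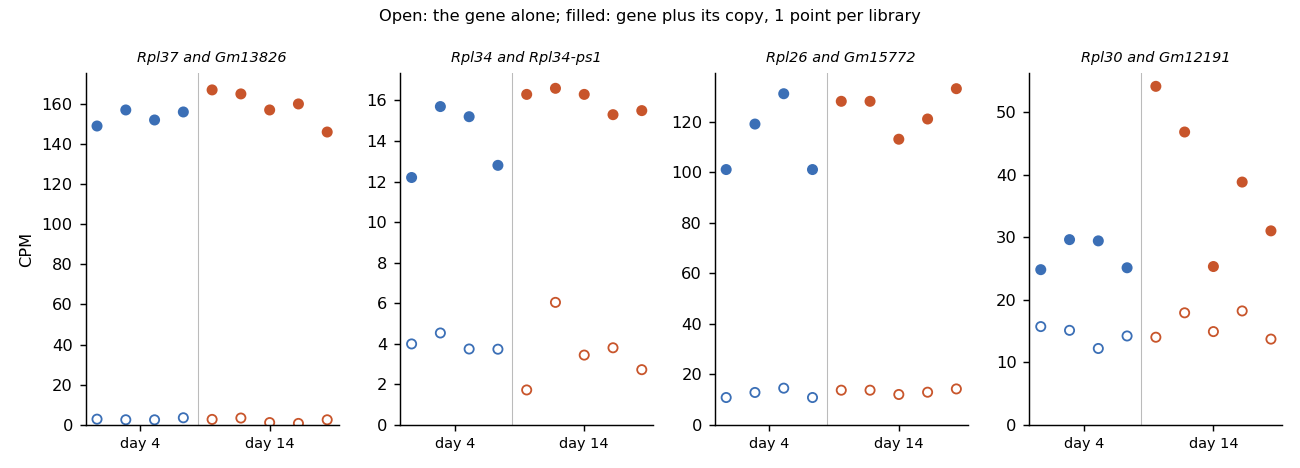
CPM per library of 4 members alone (open points) and with their listed copy (filled points), day 4 in blue on the left of each panel and day 14 in orange on the right. For Rpl37 the open points lie between 0.696 and 3.51 CPM and the filled points between 146 and 167 CPM.

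Start sites of the members were searched for the TOP tract in RefSeq promoter sequences (GRCm38.p6, 300 bases around each annotated start). Of 72 members, 53 matched by symbol, with 63 starts. A C followed by at least 7 further pyrimidines on the gene's strand, within 30 bases before to 50 after the start, was found at 74.6% of members' starts and at 23.1% of all 32851 starts in the table. The word CCGGAAG (either strand, over the whole 300 bases), the core bound by ETS factors, was at 34.9% against 8.9%, and AAGATGGC, the core bound by YY1, at 11.1% against 2.7%. A match is a description of these letters only. The tracts of 4 called members and, for comparison, of 3 abundant members that did not pass are printed with the tract in capitals, 30 bases each on the gene's strand. From an annotated start, they begin at -16 (Rpl13), -20 (Rpl5), 1 (Rpl38), 42 (Rpl10), -1 (Rps6), -5 (Rps9) and 27 (Rpl4). Those of Rpl13 and Rpl5 lie wholly before that start. A printed tract is therefore not shown to begin the mRNA.

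Rpl13 (chr8:123102324-123102353, plus strand): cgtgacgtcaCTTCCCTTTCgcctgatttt

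Rpl5 (chr5:107900498-107900527, plus strand): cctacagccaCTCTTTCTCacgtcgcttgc

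Rpl38 (chr11:114668569-114668598, plus strand): gaagcctcgttCTTTCCCCgttctcttcgg

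Rpl10 (chrX:74270836-74270865, plus strand): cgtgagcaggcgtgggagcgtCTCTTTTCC

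Rps6 (chr4:86857349-86857378, minus strand): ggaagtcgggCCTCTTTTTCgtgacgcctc

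Rps9 (chr7:3704025-3704054, plus strand): aaccgccttgtCTCTCTTTgtctcgggcct

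Rpl4 (chr9:64173406-64173435, plus strand): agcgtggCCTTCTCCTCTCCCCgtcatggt

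The tract was found for 4 of the 7 called members with a promoter sequence (57.1%) and for 40 of 46 that were not called (87.0%). The difference was not tested.

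The 8 members beyond the break were measured in 4 and 4 libraries. Besides Rpl10 and Rps4x, which passed, and Rpl4 and Rpl29, given already, they were Rpl14, Rpl36a, Rpl39 and Rps25. Rpl39, a short protein of the exit tunnel, was at 57.5, 80.6, 69.7 and 57.3 CPM at day 4 and at 113, 118, 46.7 and 116 CPM at day 14 (0.57 ± 0.26, adjusted p = 0.12). Replicate 3 alone kept the days from separating, and without it the log2 fold change was 0.77 ± 0.12 (adjusted p = 0.00082). That library was singled out for its low value, so this p-value is no independent support. With any other library left out, Rpl39 did not pass (adjusted p from 0.117 to 0.277). Rps25, which some viral mRNAs need for initiation at internal sites, had 51.0, 51.6, 48.2 and 45.1 CPM, then 65.8, 71.4, 45.0 and 61.5 CPM (0.31 ± 0.13, adjusted p = 0.0877). Rpl14 was at 63.5 and 68.5 CPM and Rpl36a at 7.96 and 9.78 CPM, and neither passed (adjusted p = 0.331 and 0.225).

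The 6 ribosomal proteins that the symbol pattern leaves out did not pass either. Rplp0, the base of the acidic stalk, had 360, 373, 374 and 407 CPM at day 4, then 345, 337, 353, 323 and 373 CPM (log2 fold change -0.13 ± 0.08, adjusted p = 0.227). Rpsa, also known as a laminin-binding protein, was at 168 ± 10.5 and 165 ± 10.8 CPM (adjusted p = 0.812). Fau, made as a fusion with a ubiquitin-like protein, was at 61.2 ± 5.66 and 66.7 ± 10.4 CPM (adjusted p = 0.426). Rplp1 and Rplp2, the stalk proteins on Rplp0, had adjusted p of 0.594 and 0.558.

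Of the paralogs of members, Rps27l rose and the other 4 tested did not pass. Rps27l, a p53 target gene that encodes a near copy of Rps27, had 31.7, 34.8, 27.9 and 26.7 CPM at day 4, then 48.7, 45.6, 35.6 and 57.3 CPM (n = 4 and 4, beyond the break), with no overlap between the days. Its log2 fold change of 0.63 ± 0.14 (adjusted p = 0.00669) was above that of every member. Rps27 itself, listed at 4.23 and 4.51 CPM, did not pass (0.10 ± 0.20, adjusted p = 0.726). Rpl22l1, the paralog of the called Rpl22, was at 6.74 ± 1.34 and 7.22 ± 1.44 CPM (adjusted p = 0.661), and Rpl7l1 and Rpl36al were within 0.03 of 0 in log2 fold change.

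Genes that make or use ribosomes were read from lists chosen for this family. Of 20 other genes with TOP mRNAs, 2 were higher and 0 lower (median log2 fold change 0.18), namely the histone chaperone gene Nap1l1 (87.0 ± 14.3 to 125 ± 16.8 CPM) and Eif3e of initiation factor 3 (57.6 ± 8.80 to 74.3 ± 11.5 CPM, adjusted p = 0.0498). Of 50 ribosome assembly factors, 3 rose and 6 fell (median 0.08). Nmd3, which exports the large subunit from the nucleus, rose from 35.1 ± 4.99 to 57.6 ± 10.1 CPM (adjusted p = 0.00227), and Sbds, which frees the large subunit for joining, from 64.2 ± 2.54 to 82.7 ± 4.49 CPM (adjusted p = 0.00222). Bysl, a factor of small-subunit assembly, fell from 15.4 ± 1.81 to 10.9 ± 1.34 CPM (adjusted p = 0.00807). The days did not overlap for any of these 3. The shares called were 10% and 18%, below the 31.0% of all genes.

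Of 17 genes for RNA polymerase I and its factors, 3 rose and 0 fell, with a median of -0.05. The share called higher, 17.6%, was near the 16.0% of all genes. They were Polr1d, a subunit shared with RNA polymerase III (61.0 ± 2.45 to 73.1 ± 6.84 CPM), Taf1a (5.22 ± 0.232 to 6.72 ± 0.682 CPM) and Max, the partner of Myc (99.9 ± 4.34 to 117 ± 9.77 CPM).

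Of 17 genes for mTORC1 and control of TOP mRNAs, 2 rose, 3 fell and 12 did not pass (median log2 fold change -0.08), a share called of 29.4% beside 31.0% of all genes. Ddit4, an inhibitor of mTORC1 that stress and low oxygen induce, fell from 147 ± 19.8 to 32.9 ± 7.90 CPM (a log2 difference of -2.16 ± 0.16, adjusted p = 2.93e-06). Eif4ebp1, the translation repressor that mTORC1 inactivates, fell from 39.5 ± 5.76 to 21.4 ± 4.32 CPM (-0.89 ± 0.15, adjusted p = 0.000793). Sesn1, another inhibitor upstream of mTORC1, rose from 69.9 ± 19.2 to 110 ± 15.6 CPM (0.65 ± 0.17, adjusted p = 0.0123). Larp1 was at 172 ± 3.24 and 171 ± 7.10 CPM (adjusted p = 0.969). These are mRNA levels, and neither kinase activity nor translation was measured.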

How the data were processed

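Paired-end libraries were made with the TruSeq RNA kit v2, per the labels' protocols, a kit that does not mark strand, so antisense overlap cannot be told apart. The authors deposited estimated counts per gene symbol, not normalized and partly not whole. The submitters' processing notes name mm10, HISAT2 2.1.0, CASAVA 1.8, Partek 6.6, DESeq2 and SAMtools 1.4, with roles not given in the sources used here. A second deposited table of normalized values was not used. Counts were rounded, scaled with TMM, filtered with filterByExpr and tested with edgeR 4.0.16 (R 4.3.3, glmQLFit, robust, two-sided). Adjusted p-values are Benjamini-Hochberg values across the 13353 genes tested. Genes from Aplp2 onward, on X, Y or of unknown position (1604) came from a fit of the 8 complete libraries. Standard errors came from the F statistic. CPM are relative to the counts of genes up to the break. The test was checked on simulated counts with the same dispersion for every gene. They held no trend shared by genes of a library, so the check does not cover such trends. The symbols of 17102 genes matched RefSeq and 1098 an older name. Coding sequences are from GENCODE M21 and promoters from RefSeq GRCm38.p6. Copies were aligned to coding sequences without gaps. Members and lists were chosen with earlier results of these data known. Named genes came from a rule: the 6 called members of largest change, the 3 most and 3 least abundant and the 3 least changed, members beyond the break, relatives of the family and, in each list, the most abundant gene and those of lowest p. The other 3 called members, Rpl11, Rps26, Rpl18, Rps2, those with listed copies and those gained in an alternative were picked on their values. Alternatives were 4 scalings, DESeq2 1.42.0, limma-voom (limma 3.58.1), dispersion, covariates, filters, treatment of the break, library subsets, a GC offset and summed copies. Some genes are not reported here by name.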

Additional observations from a re-analysis of the deposited data

Results flagged for a closer look

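In groups of 4 or 5 libraries, 64 groups of values were checked for a library far from the others, and chance alone sets apart about 5% of groups. Both values found came from day 14 replicate 3. Rpl39 stood at 46.7 CPM there, against 113 CPM in the nearest of the other 3 day 14 libraries, a gap of 0.926 of the group's range. Rpl4 stood at 446 CPM, against 508 CPM in the nearest, a gap of 0.889 of the range. Both genes lie beyond the break, where the group has 4 libraries. In the same library, 6 neutrophil markers summed to 1820 CPM, and their part in these 2 values was not tested.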

How the results depend on the processing

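The number of members called higher (9) went to 0 with the fibroblast score as a covariate and 0 in the 6 shallower libraries, to 1 with the neutrophil score and to 14 with the GC offset, and it ranged from 1 to 28 when each library was left out in turn. The number called lower (0) went to 2 with DESeq2 and ranged from 0 to 2 with libraries left out, the 2 being Rpl18 and Rps19 without day 4 replicate 2. Other scalings, tests and filters kept the higher count within 1.5 times of 9. The members' median log2 fold change (0.14) lay between 0.03 and 0.23 in all alternatives run, and the log2 ratio of the summed levels (0.11) between 0.08 and 0.15. Of 1864 refits of single members and named genes, 0 reversed a call. Among 233 refits of the 9 called members, 155 kept and 78 lost the call. The causes were not tested. No paired analysis was possible because the labels give no replicate numbers that the days share. Values of Rpl21, Rpl30, Rpl34, Rpl37 and Rps26 depend on how reads shared with copies were counted.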

Other observations

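Ribosomal proteins of the mitochondrion, a separate set of nuclear genes, had a negative median. Of 76 tested, 2 were higher and 7 lower at day 14 (median log2 fold change -0.15), against 9 and 0 of the 72 cytosolic members (median 0.14). The 11.8% called lay below the 31.0% of all genes tested, and the difference between the sets was not tested. Mrps6, of the small mitochondrial subunit, rose from 12.2 ± 2.33 to 22.8 ± 1.05 CPM (a log2 difference of 0.90 ± 0.12, adjusted p = 0.000216, SD, n = 4 and 5). Mrpl38 fell from 12.8 ± 1.39 to 9.75 ± 0.958 CPM (adjusted p = 0.019) and Mrpl28 from 18.0 to 22.8 CPM in the day 4 libraries to 13.4 to 17.0 CPM (adjusted p = 0.0194), with no overlap between the days for any of these 3.

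Among 31 genes for translation initiation and elongation, 3 rose and 2 fell (16.1% called, beside 31.0% of all genes). Eif4a2, a helicase of initiation, rose from 225 ± 18.4 to 362 ± 55.2 CPM (adjusted p = 0.00103), and Eif5, which activates GTP hydrolysis on initiation factor 2, from 577 ± 115 to 795 ± 100 CPM (adjusted p = 0.025). Eif2b2, of the exchange factor that recharges initiation factor 2, fell from 26.3 ± 2.27 to 20.5 ± 1.15 CPM (adjusted p = 0.00878). Of 10 genes for ribosome rescue, Pelo, which frees stalled ribosomes, fell from 14.3 ± 0.928 to 8.83 ± 0.404 CPM (a log2 difference of -0.69 ± 0.09, adjusted p = 0.00022), and the other 9 did not pass. Of 11 chaperones and cargo receptors of ribosomal proteins, 0 passed. Tsr2, the chaperone of Rps26, came closest (7.79 ± 0.495 and 9.86 ± 0.914 CPM, adjusted p = 0.0556, n = 4 and 4).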
